A study of Mus musculus with 12 samples.

Results

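The calcium/calmodulin-dependent protein kinases were examined at the level of mRNA in cultured entorhinal cortex (EC) neurons in which Dek, a chromatin protein gene, was silenced or overexpressed. The 10 genes were taken by symbol and comprised the kinase kinases Camkk1 and Camkk2, the CaMKI genes Camk1, Camk1d and Camk1g, the CaMKIV gene Camk4, and the 4 genes of the CaMKII subunits, Camk2a, Camk2b, Camk2d and Camk2g. All 10 were present among the 24100 genes of the table and all 10 passed the filter on low counts in every comparison.

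EC neurons were prepared from C57BL/6J mouse embryos at embryonic day 17 and given an adeno-associated virus on day 7 in vitro, and 3 wells per group were harvested 4 days after that. Dek-silenced neurons received AAV1-mCherry-U6-mDEK-shRNA and their controls AAV1-mCherry-U6-scrmb-shRNA, so both carried a hairpin driven by U6 together with mCherry. Dek-overexpressing neurons received AAV1-hSyn1-mDEK-IRES-mCherry and their controls AAV1-hSyn1-mCherry-WPRE, in which the neuronal promoter hSyn1 drives the cDNA or the fluorescent protein alone. The records do not say whether wells came from separate dissections, so p-values measure the spread between wells, which may be technical.

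Calcium that enters an active neuron binds calmodulin, and the complex switches on this family of kinases. CaMKII assembles from alpha, beta, gamma and delta subunits and acts mainly at synapses and on the cytoskeleton, whereas CaMKI and CaMKIV form a cascade in which they are phosphorylated by CaMKK1 or CaMKK2. CaMKI acts largely in the cytosol on neurite growth, CaMKIV is found mostly in the nucleus, where it phosphorylates CREB, and CaMKK2 also activates the AMP-activated kinase.

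Library totals lay between 15679479 and 18933293 estimated counts. Dek itself averaged 7.60 ± 0.99 CPM (counts scaled to sequencing depth by TMM, mean ± SD, n = 3) in Dek-silenced, 36.0 ± 0.714 in scrambled, 144 ± 14.0 in Dek-overexpressing and 39.0 ± 2.51 in empty vector wells, as the labels state. Over all genes tested between Dek-silenced and scrambled wells, 28.5% were lower and 26.2% were higher, and the marker counts stand beside these shares. Of 9 pan-neuronal marker genes, 6 were lower and 1 was higher in Dek-silenced than in scrambled wells, and their summed level ranged from 5596 to 6125 CPM against 6797 to 6974 CPM. The summed level of 7 excitatory neuron markers ranged from 343 to 381 CPM in Dek-silenced, from 337 to 380 in scrambled, from 546 to 586 in Dek-overexpressing and from 535 to 562 CPM in empty vector wells, and no marker of either list was at 0. Of these 7, 1 was lower (Neurod6, log2FC -0.81) and 1 higher (Slc17a6, 0.62) in Dek-silenced than in scrambled wells. Of 8 astrocyte markers 0 passed between Dek-silenced and scrambled wells, and of 5 oligodendrocyte markers tested 4 were higher and 1 was lower in Dek-silenced wells. Of 10 GABAergic neuron markers 4 were higher and 2 lower, of 5 oligodendrocyte precursor markers 3 were higher and 0 lower (median log2FC 0.97), and of 4 markers of dividing cells 2 were higher and 0 lower (median 0.99). The part of these differences in the results was not tested, and in bulk RNA fewer cells of a type and less RNA per cell cannot be told apart.

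The annotation placed Camk2d at chr3:126596302-126846326 on the plus strand (GRCm38), with 28 transcripts, and Camk1d at chr2:5293457-5714515 on the minus strand, with 4 transcripts. Camk2b lies at chr11:5969644-6066362 and Camkk2 at chr5:122731170-122779409 and both are on the minus strand. The counts are per gene, so splice forms of a kinase were not told apart. The gene Camk4 shares 72 exonic bases (2.21% of its exonic bases) with the antisense gene 2310026I22Rik, and Camk1 shares 232 (3.88%) with Ogg1 on the opposite strand, and without a stated strand setting reads from these stretches cannot be assigned.

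The Dek hairpin targets 21 bases of the Dek coding sequence, and bases 11 to 17 of this target, AAGAGGA, were noticed in an earlier analysis of these data as a heptamer of genes that were lower in Dek-silenced neurons. The sites are shown because the heptamer occurs in the annotated 3′ UTR of 4 kinases, Camk4, Camk1d, Camk2d and Camk2a. The target and the sites of Camk2d and Camk1d, each aligned on the heptamer in capitals and written 5′ to 3′ on the gene's strand in the GENCODE vM21 annotation of GRCm38, read as follows.
Dek target, coding sequence, chr13:47099377-47099397, minus strand: cgaactcgtgAAGAGGAtctt
Camk2d 3′ UTR, chr3:126844134-126844154, plus strand: gcttaaaacaAAGAGGAaaag
Camk1d 3′ UTR, chr2:5294872-5294892, minus strand: gacaaggaagAAGAGGAaaag
Camk1d 3′ UTR, chr2:5298420-5298440, minus strand: tacgaattctAAGAGGAtcaa
Over the 21 aligned positions the Camk2d site matched the Dek target at 7, that is in the heptamer alone, each Camk1d site at 9, the Camk2a site at 10 and the Camk4 site at 13. The heptamer occurred in 16.0% of the 20045 genes with an annotated 3′ UTR, whose median length is 996 bases. The 3′ UTRs of Camk2a, Camk2d, Camk4 and Camk1d span up to 3372, 3591, 1069 and 5526 annotated bases. Among genes tested between Dek-silenced and scrambled wells, 2349 had the heptamer and 11125 did not. With over 2000 bases of 3′ UTR, 1404 had it and 2852 did not. The heptamer was not found in the 3′ UTR of Camk2b, Camk2g, Camkk1, Camkk2, Camk1 or Camk1g. That of Camkk2 spans 3502 annotated bases and that of Camk1 only 190.

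Per kilobase of transcript, Camk2b was the most abundant kinase gene of the family in all 4 groups. In empty vector wells it stood at 180 CPM per kb, with wells between 176 and 189, and next came Camk2a at 51.7, Camk4 at 48.1, Camk1 at 43.5 and Camk2g at 43.2 CPM per kb. The wells of each neighbouring pair among these last 4 overlapped, while every Camk2a well lay above every well of Camk1 and Camk2g. The levels of Camk2d (36.8 CPM per kb), Camk1g (30.9), Camkk2 (17.8), Camkk1 (13.3) and Camk1d (10.8) followed without overlap between neighbours. In Dek-silenced wells the order was different: Camk2b at 178 CPM per kb was followed by Camk2g at 46.9, Camk1 at 37.2 and Camk2a at 35.4, and Camk4 stood at 13.7 CPM per kb, with wells from 12.5 to 14.4 that overlapped those of Camkk2 (10.8 to 13.2). The wells of Camk1 and Camk2a also overlapped there.

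Camk4, Camk1d and Camk2d fell at least 2.04-fold in Dek-silenced neurons, Camk2a fell less, and Camk1 and Camk1g fell slightly. Dek-silenced neurons thus had 6 of the 10 kinases lower and 0 higher than scrambled neurons at an adjusted p below 0.05 (edgeR quasi-likelihood test, Benjamini-Hochberg adjustment over all genes). Among all 14232 genes tested, 28.5% were lower and 26.2% were higher. The median log2FC of the 10 kinases was -0.26, against -0.0011 over all genes tested.

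**Figure D1:**
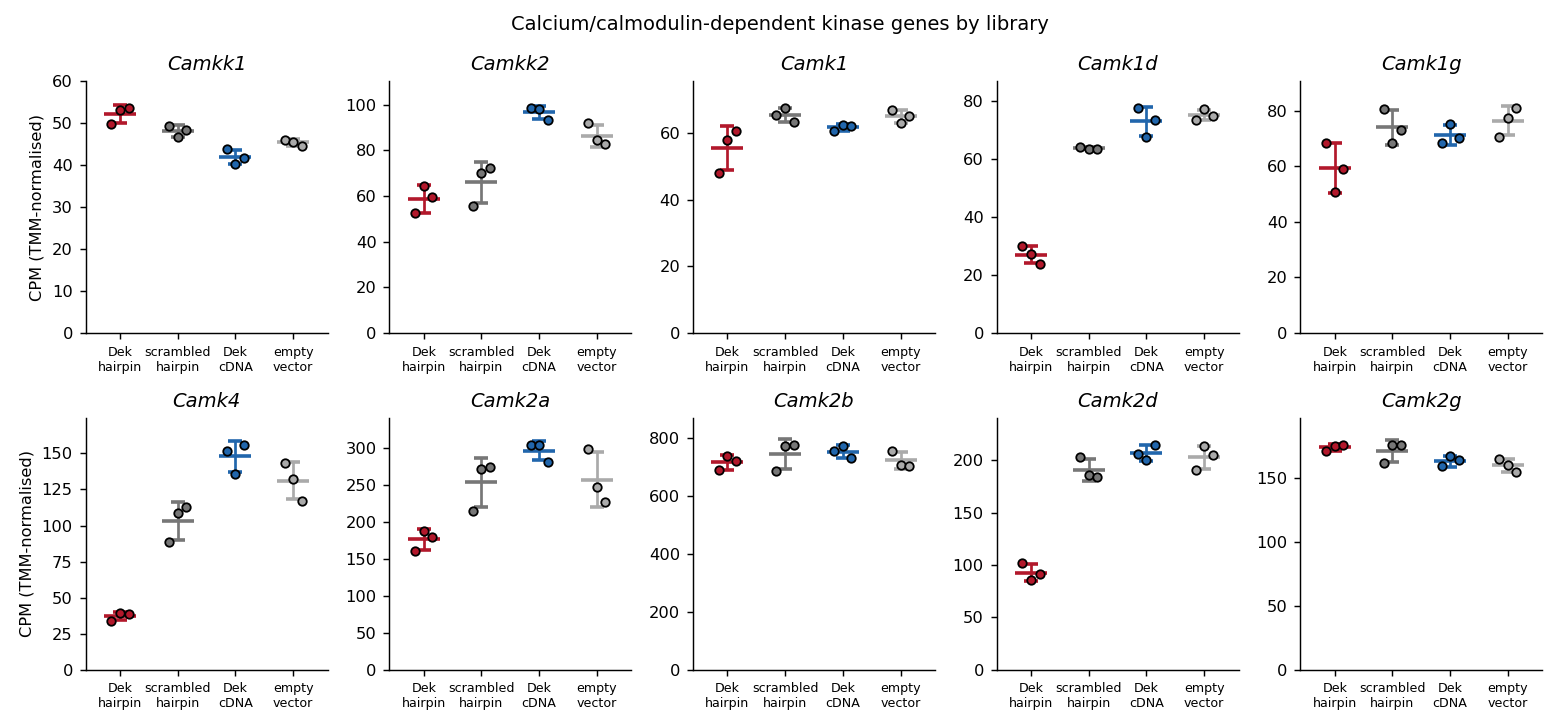
Level of each kinase gene in CPM (TMM-normalised, linear axis from 0) in each of the 12 wells, with circles for wells and bars for the mean and SD of 3 wells. For Camk4, Camk1d, Camk2d and Camk2a the 3 Dek-silenced wells lie below all 9 others, while Camk2b lies between 688 and 778 CPM throughout. Over all genes tested, 28.5% were called lower in Dek-silenced than in scrambled wells and 33.5% than in empty vector wells.

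Camk4, the nuclear kinase of the cascade, changed most. It stood at 34.1, 39.2 and 38.6 CPM in the Dek-silenced wells and at 88.5, 109 and 113 CPM in the scrambled wells. The groups did not overlap, and the highest silenced well was below the lowest scrambled one by more than either group's spread. The log2FC was -1.46 (SE 0.0984, adjusted p = 6.3e-07), a level 36.5% of that in scrambled wells, and 1.47% of the genes tested had a log2FC as low or lower.

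Camk1d, a CaMKI isoform present in neurons and leukocytes, stood at 29.9, 27.2 and 24.0 CPM in Dek-silenced and at 64.4, 63.6 and 63.6 CPM in scrambled wells. The scrambled wells were nearly equal and all lay above the silenced ones. The log2FC was -1.23 (SE 0.0796, adjusted p = 1.5e-07). The other CaMKI genes moved less. Camk1, the ubiquitous isoform, stood at 48.2, 57.9 and 60.8 CPM in Dek-silenced and at 65.6, 67.6 and 63.4 CPM in scrambled wells, with the log2FC at -0.22 (SE 0.0845, adjusted p = 0.043). These groups did not overlap, but their nearest wells were only a few CPM apart. Camk1g, the membrane-anchored isoform, stood at 68.5, 50.7 and 59.2 CPM against 80.8, 68.3 and 73.1 CPM, with the log2FC at -0.31 (SE 0.104, adjusted p = 0.030). The highest silenced well of Camk1g lay just above the lowest scrambled well. Both calls were weak: that of Camk1 was lost without Dek-silenced replicate 1 (log2FC -0.13, adjusted p = 0.13), without Dek-silenced replicate 2 and without any one scrambled well (adjusted p from 0.061 to 0.13 over these 5), and that of Camk1g without Dek-silenced replicate 2 or 3 or scrambled replicate 1 or 3 (adjusted p from 0.064 to 0.097). Both were also lost when libraries were scaled by their totals alone (adjusted p = 0.24 for Camk1 and 0.12 for Camk1g), and that of Camk1 in the DESeq2 Wald test (adjusted p = 0.056).

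The kinase kinases, which act upstream of CaMKI and CaMKIV, did not pass the test in this comparison. Camkk1 stood at 49.7, 53.1 and 53.6 CPM in Dek-silenced and at 49.4, 46.6 and 48.3 CPM in scrambled wells, with a log2FC of 0.13 (95% interval -0.013 to 0.27, adjusted p = 0.11). Its silenced wells were all above the scrambled wells, the nearest pair by less than 1 SD. Camkk2 stood at 52.4, 64.4 and 59.7 CPM against 55.7, 70.1 and 72.3 CPM, with a log2FC of -0.15 (95% interval -0.40 to 0.098, adjusted p = 0.28). The wells of Camkk2 overlapped, and without scrambled replicate 1, the lowest of its group, the log2FC was -0.27 (adjusted p = 0.024). With the replicate number as a block in the edgeR fit, Camkk2 also passed (log2FC -0.15, adjusted p = 0.043). Under scaling by library totals alone Camkk1 passed the test at a log2FC of 0.23 (adjusted p = 0.011).

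The CaMKII genes divided into a pair that fell and a pair for which no change was detected. Camk2d, the delta subunit, stood at 102, 86.0 and 91.0 CPM in Dek-silenced and at 203, 186 and 184 CPM in scrambled wells. It was lower in every silenced well, at 49.0% of the scrambled level, with a log2FC of -1.03 (SE 0.0678, adjusted p = 1.7e-07). Camk2a, the alpha subunit of forebrain excitatory neurons, stood at 160, 188 and 179 CPM against 215, 271 and 274 CPM, with a log2FC of -0.51 (SE 0.101, adjusted p = 0.0024). The scrambled wells of Camk2a were spread more widely than the silenced ones, without overlap.

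Camk2b, the actin-binding beta subunit, averaged 717 ± 25.5 CPM in Dek-silenced and 746 ± 50.6 CPM in scrambled wells, with a log2FC of -0.045 (95% interval -0.17 to 0.081). Under scaling by library totals alone its log2FC was 0.054. Camk2g, the gamma subunit, averaged 174 ± 2.65 and 171 ± 8.40 CPM, with a log2FC of 0.031 (95% interval -0.089 to 0.15, adjusted p = 0.66), and without scrambled replicate 1 its log2FC was -0.013. Both genes overlapped between the groups.

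Within a library the make-up of the CaMKII mRNA pool shifted with these changes. By counts per kilobase, Camk2d made up 6.87%, 5.47% and 5.89% of the 4 subunit genes in the Dek-silenced wells and 12.5%, 10.2% and 10.1% in the scrambled wells. The share of Camk2a averaged 12.7% ± 0.634 against 16.0% ± 1.15 (SD, n = 3). Camk2b took 64.3% ± 0.386 against 58.4% ± 0.360, and Camk2g 16.9% ± 0.308 against 14.6% ± 0.198. None of the 4 shares overlapped between the 2 groups. The shares are parts of 1 whole, so lower shares of Camk2a and Camk2d raise those of Camk2b and Camk2g. The levels of Camk2b and Camk2g themselves had log2FC of -0.045 and 0.031, with overlapping wells. The summed level of the 4 genes was 268, 284 and 280 CPM per kb in Dek-silenced and 295, 328 and 329 CPM per kb in scrambled wells. The sums did not overlap.

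**Figure D2:**
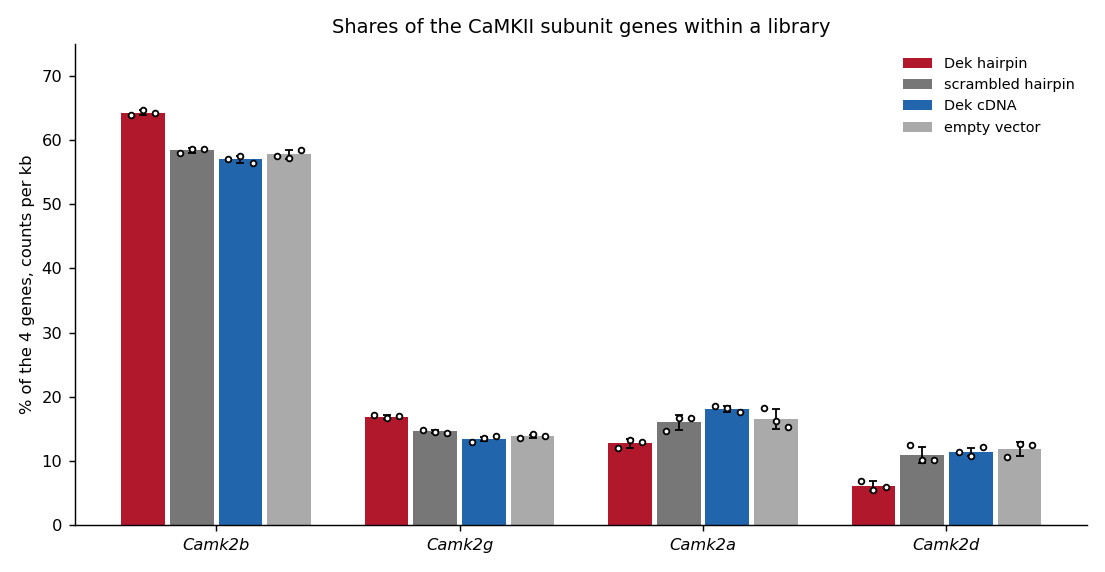
Share of each CaMKII subunit gene, in percent of the 4 genes by counts per kilobase of transcript, with bars for the mean of 3 wells, error bars for the SD and circles for wells. The Camk2d share was 6.08% in Dek-silenced wells and 10.9% to 11.8% in the other groups, and Camk2b took 64.3% against 57.0% to 58.4%.

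Ratios of subunits within a library do not depend on how libraries are scaled. The log2 ratio of Camk2d to Camk2g was -0.75, -1.02 and -0.95 in Dek-silenced wells and 0.33, 0.074 and 0.066 in scrambled wells, a difference of -1.06. That of Camk2d to Camk2b differed by -0.99 and that of Camk2a to Camk2b by -0.47. All 3 ratios were lower in every Dek-silenced than in every scrambled well, which gives an exact two-sided permutation p of 0.10, the smallest that 3 against 3 wells allow (0.20 after adjustment over 6 tests). Each ratio sets a gene called lower above over a gene that was not called, and the 3 ratios share genes. They restate the fits in the same wells and are no independent test of the fall. In Dek-overexpressing against empty vector wells the same 3 ratios differed by -0.0065, -0.034 and 0.15, with exact permutation p-values of 0.90, 0.80 and 0.30, and their wells overlapped.

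The 4 kinases with the heptamer AAGAGGA in the 3′ UTR were the 4 with the lowest log2FC, between -1.46 and -0.51, and the 6 without it lay between -0.31 and 0.13. Across all genes tested, 43.3% of 2349 genes with the heptamer in the 3′ UTR were lower in Dek-silenced than in scrambled wells, against 26.3% of 11125 without it, with median log2FC of -0.19 and 0.027. Genes with it had longer 3′ UTRs (median 2452 against 1047 bases), and among genes with over 2000 bases the shares were 44.2% and 30.0%. Against the empty vector the same 4 kinases had log2FC between -1.77 and -0.51 in Dek-silenced neurons, and between -0.041 and 0.21 in Dek-overexpressing neurons, which carried no hairpin. Between scrambled and empty vector wells, neither of which received the Dek hairpin, 2 of these 4 kinases and 1 of the other 6 were lower. In that contrast 31.2% of genes with the heptamer and 20.5% without it were lower, and 40.9% and 38.9% among genes with over 2000 bases of 3′ UTR. The heptamer was noticed in these same data among genes lower in Dek-silenced neurons. Its excess there, and in the kinases that fell, is therefore no independent test of it. The part of the heptamer in the fall of these kinases was not tested. The match to bases 2 to 8 of a guide begun at the last base of the target occurred in Camk2a and Camkk2 among the kinases and in 10.2% of genes. Among genes with over 2000 bases of 3′ UTR, 34.4% with that match and 34.8% without it were lower in Dek-silenced than in scrambled wells.

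Dek overexpression left no kinase past the test. Of the 10 genes 0 were higher and 0 lower than in empty vector wells at an adjusted p below 0.05, where 0.0071% of the 14089 genes tested (Dek alone) were higher and 0% lower. At an unadjusted p below 0.05, 3 kinases were higher and 0 lower, against 2.92% of genes higher and 3.68% lower. DESeq2 and limma-voom also called 0 of the 10.

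These 3 were Camkk2, Camk4 and Camk2a. Camkk2 stood at 98.5, 98.2 and 93.2 CPM in Dek-overexpressing and at 91.8, 84.3 and 82.9 CPM in empty vector wells, with a log2FC of 0.16 (95% interval 0.035 to 0.29, adjusted p = 0.69). Every well of the first group lay above the second. Camk4 stood at 152, 136 and 156 CPM against 143, 132 and 117 CPM, with a log2FC of 0.18 (95% interval 0.024 to 0.34, adjusted p = 0.71). Camk2a stood at 304, 303 and 281 CPM against 298, 247 and 226 CPM, with a log2FC of 0.21 (95% interval 0.026 to 0.39, adjusted p = 0.71). For Camk4 and Camk2a the wells overlapped.

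The other 7 kinases had log2FC between -0.11 and 0.060 under Dek overexpression. Camkk1 stood at 43.8, 40.3 and 41.7 CPM against 46.1, 45.6 and 44.5 CPM (log2FC -0.11, 95% interval -0.25 to 0.030, adjusted p = 0.81), with all wells of the overexpressing group below the others. For Camk2d (95% interval -0.098 to 0.15) and Camk1d (-0.18 to 0.096) the intervals did not reach the size of the differences seen with silencing. Camk2b (-0.047 to 0.17), Camk2g (-0.084 to 0.15), Camk1 (-0.20 to 0.055) and Camk1g (-0.24 to 0.049) also had intervals that include 0.

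**Figure D3:**
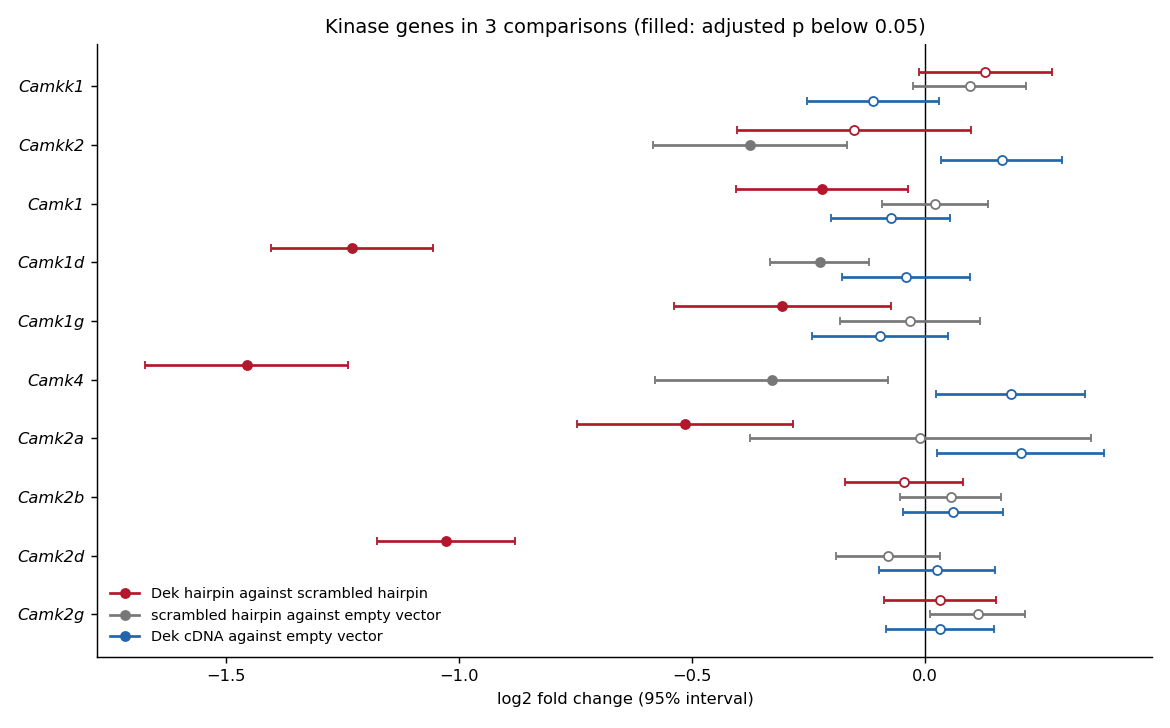
The log2 fold change of each kinase gene with its 95% interval from the edgeR fit, for Dek hairpin against scrambled hairpin (red), scrambled hairpin against empty vector (grey) and Dek cDNA against empty vector (blue), filled where the adjusted p is below 0.05. Camk4 (-1.46), Camk1d (-1.23) and Camk2d (-1.03) stand apart on the left in red, and all blue points lie between -0.11 and 0.21.

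The responses to silencing and to overexpression were then compared directly in a fit of all 12 wells. The response to silencing was lower than that to overexpression for Camk4 (difference of log2FC -1.62, SE 0.133, adjusted p = 9.9e-08), Camk1d (-1.17, SE 0.102, adjusted p = 5.5e-08), Camk2d (-1.04, SE 0.0926, adjusted p = 7.4e-08) and Camk2a (-0.70, SE 0.150, adjusted p = 0.0019). It was higher for Camkk1 (0.26, SE 0.0860, adjusted p = 0.021). That makes 4 kinases lower and 1 higher, where 22.7% of 14604 genes were lower and 20.4% were higher. The call for Camkk1 was lost without scrambled replicate 2 (adjusted p = 0.061), Dek-overexpressing replicate 2 (0.052) or empty vector replicate 2 (0.053), and with no filter (0.070). For Camkk2 the difference was -0.30 (95% interval -0.56 to -0.034, adjusted p = 0.064), and for Camk1g it was -0.19 (95% interval -0.47 to 0.089).

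The scrambled hairpin itself was compared with the empty vector, a contrast in which promoter and cargo differ together and cannot be told apart. Here 3 kinases were lower and 0 higher, where 21.8% of 14096 genes were lower and 21.3% were higher. Camkk2 was lower at 66.1 ± 8.99 CPM in scrambled than at 86.3 ± 4.80 CPM in empty vector wells (log2FC -0.38, SE 0.0920, adjusted p = 0.0091). Camk4 averaged 103 ± 13 against 131 ± 12.8 CPM (log2FC -0.33, SE 0.106, adjusted p = 0.040), and Camk1d 63.9 ± 0.488 against 75.3 ± 1.88 CPM (log2FC -0.23, SE 0.0490, adjusted p = 0.0022). All 3 genes were lower in every scrambled well. The call of Camk4 was lost without scrambled replicate 2 (adjusted p = 0.058), empty vector replicate 1 (0.12) or empty vector replicate 2 (0.096), and with no filter on low counts (0.12). Corrected for GC content and length, Camk1d stood at a log2FC of 0.015 (adjusted p = 0.84). In the same contrast 4 of 7 excitatory neuron markers were lower and 7 of 10 GABAergic neuron markers were higher, and their part in these differences was not tested.

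The other 7 kinases did not pass between the controls, and Camk2a had a log2FC of -0.0098 (95% interval -0.38 to 0.36). Without scrambled replicate 1, Camk2b (log2FC 0.11, adjusted p = 0.036) and Camk2g (0.15, adjusted p = 0.011) were higher and Camk2d (-0.13, adjusted p = 0.044) was lower, against log2FC of 0.055, 0.11 and -0.080 with all wells.

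Set against the empty vector, Dek-silenced neurons had 6 kinases lower and 2 higher, where 33.5% of 14292 genes were lower and 34% were higher. This contrast shares its wells with the others and also differs in promoter. Camk4 was at 29.4% (log2FC -1.77, SE 0.0824), Camk1d at 36.9% (log2FC -1.44, SE 0.0773) and Camk2d at 47.0% (log2FC -1.09, SE 0.0680) of the empty vector level. Camkk2 (log2FC -0.51, adjusted p = 8.5e-05), Camk2a (-0.51, adjusted p = 0.0011) and Camk1g (-0.32, adjusted p = 0.011) were lower too. Camkk1 was higher by 0.24 on the log2 scale (adjusted p = 0.0046) and Camk2g by 0.16 (adjusted p = 0.014). The call of Camk2g was lost without Dek-silenced replicate 2 (adjusted p = 0.056), empty vector replicate 2 (0.067) or empty vector replicate 3 (0.13), and that of Camkk1 with the GC and length correction (log2FC 0.086, adjusted p = 0.20). Camk1 did not pass (log2FC -0.18, adjusted p = 0.068). Its log2FC was below 0 in all 15 alternatives and it passed in 5 of them, with a log2FC of -0.56 (adjusted p = 7.4e-06) under the GC and length correction.

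The genes around the kinases were described from 8 lists of calmodulin, inhibitors, phosphatases and targets. Between Dek-silenced and scrambled wells list medians of log2FC were -0.0022 for inhibitors and other family kinases, -0.26 for calmodulin-binding proteins and -0.070 for phosphatases. They were 0.25 for kinases downstream of Camkk1 and Camkk2 and 0.021 for other calmodulin-dependent kinases and their partners. Calm3, a calmodulin gene, averaged 2057 ± 65.4 CPM in Dek-silenced and 2277 ± 53.3 CPM in scrambled wells (log2FC -0.13, SE 0.0433, adjusted p = 0.020). Calm2, another calmodulin gene, had a log2FC of -0.036 (adjusted p = 0.55).

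Camk2n2, an endogenous inhibitor protein of CaMKII, was higher in Dek-silenced wells (115 ± 11.7 against 91.8 ± 3.99 CPM, log2FC 0.34, adjusted p = 0.0031). The other inhibitor, Camk2n1, had a log2FC of 0.037 (adjusted p = 0.86). Pnck, the CaMKI beta kinase, was lower (77.3 ± 8.10 against 104 ± 8.53 CPM, log2FC -0.42, adjusted p = 0.0017), and Camkv, a kinase-like protein without activity, had a log2FC of -0.042 (adjusted p = 0.70). Camk2n2 was also higher in scrambled than in empty vector wells (log2FC 0.33, adjusted p = 0.00019).

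Of 9 neuronal proteins that bind calmodulin or regulate calcineurin, 4 were lower and 1 was higher (28.5% and 26.2% of all genes). Rcan3, a calcineurin regulator, fell to 59.4 ± 5.08 from 137 ± 7.92 CPM (log2FC -1.20, adjusted p = 6.7e-08), while its relative Rcan2 rose to 351 ± 44.9 from 206 ± 24.0 CPM (log2FC 0.78, adjusted p = 0.00029). Gap43, the growth cone protein, was lower (log2FC -0.46, adjusted p = 9.3e-06). Nrgn, neurogranin of dendrites, had a log2FC of -0.83 that did not pass (SE 0.279, adjusted p = 0.058).

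Of 13 phosphatase genes 5 were lower and 1 was higher, where 28.5% of all genes tested were lower and 26.2% higher. Ppp1r9b, spinophilin, which holds protein phosphatase 1 in dendritic spines, fell to 109 ± 10.4 from 323 ± 22 CPM (log2FC -1.56, adjusted p = 3.5e-08). Ppm1f, a phosphatase that removes the activating phosphate from CaM kinases, was lower (log2FC -0.45, adjusted p = 5.9e-05), as were the calcineurin subunit genes Ppp3cb (-0.39, adjusted p = 0.00013) and Ppp3cc (-0.46, adjusted p = 0.00036). Ppp1ca, a catalytic subunit of protein phosphatase 1, was the gene that was higher (log2FC 0.23, adjusted p = 0.0013).

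Among 15 nuclear targets and partners, 8 were lower and 1 was higher (28.5% and 26.2% of all genes), and the list median was -0.32. Hdac5, a class II deacetylase that CaM kinases export from the nucleus, fell to 140 ± 7.63 from 254 ± 22.3 CPM (log2FC -0.85, adjusted p = 1.1e-06). The CREB coactivator Ep300 (log2FC -0.60, adjusted p = 7.7e-05), Srf (-0.48, adjusted p = 0.00021) and Hdac4 (-0.41, adjusted p = 0.00024) were lower. Mef2a, a transcription factor held by class II deacetylases, rose to 177 ± 11.2 from 97.1 ± 4.74 CPM (log2FC 0.88, adjusted p = 3.1e-07). Between the controls, 7 of the 15 were lower and 2 higher in scrambled than in empty vector wells (21.8% and 21.3% of all genes).

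Of 19 synaptic and cytosolic targets, 8 were lower and 4 were higher (28.5% and 26.2% of all genes), with a list median of -0.059. Gria1, the AMPA receptor subunit phosphorylated by CaMKII, was lower (log2FC -0.44, adjusted p = 7.9e-05), as were the translation factor Eif4g3 (-0.64, adjusted p = 7.9e-07) and the microtubule protein Camsap3 (-0.43, adjusted p = 0.00032). Grin2a (0.79, adjusted p = 0.00039) and Grin1 (0.25, adjusted p = 0.0016), NMDA receptor subunits, were higher. Grin2b, whose product docks CaMKII at the synapse, had a log2FC of -0.029 (adjusted p = 0.89).

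Downstream of the kinase kinases, 4 of 8 genes were higher and 2 were lower (26.2% and 28.5% of all genes). The AMP-activated kinase subunit genes Prkab1 (log2FC 1.01, adjusted p = 1.4e-06), Prkaa2 (0.65, adjusted p = 3.5e-06), Prkag1 (0.57, adjusted p = 9e-06) and Prkab2 (0.37, adjusted p = 0.00041) were higher, and the other catalytic subunit gene Prkaa1 was lower (-0.86, adjusted p = 0.00016). Of 11 tested genes for other calmodulin-dependent or related kinases and their partners, 3 were higher, among them Dclk2 (0.58, adjusted p = 8e-06) and Phkg2 (0.55, adjusted p = 5.2e-06). In the same list 5 were lower, among them Dapk1 (-0.55, adjusted p = 3e-05) and Cask (-0.34, adjusted p = 0.00037). Dek overexpression against empty vector called 0 genes of the 8 lists.

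**Figure D4:**
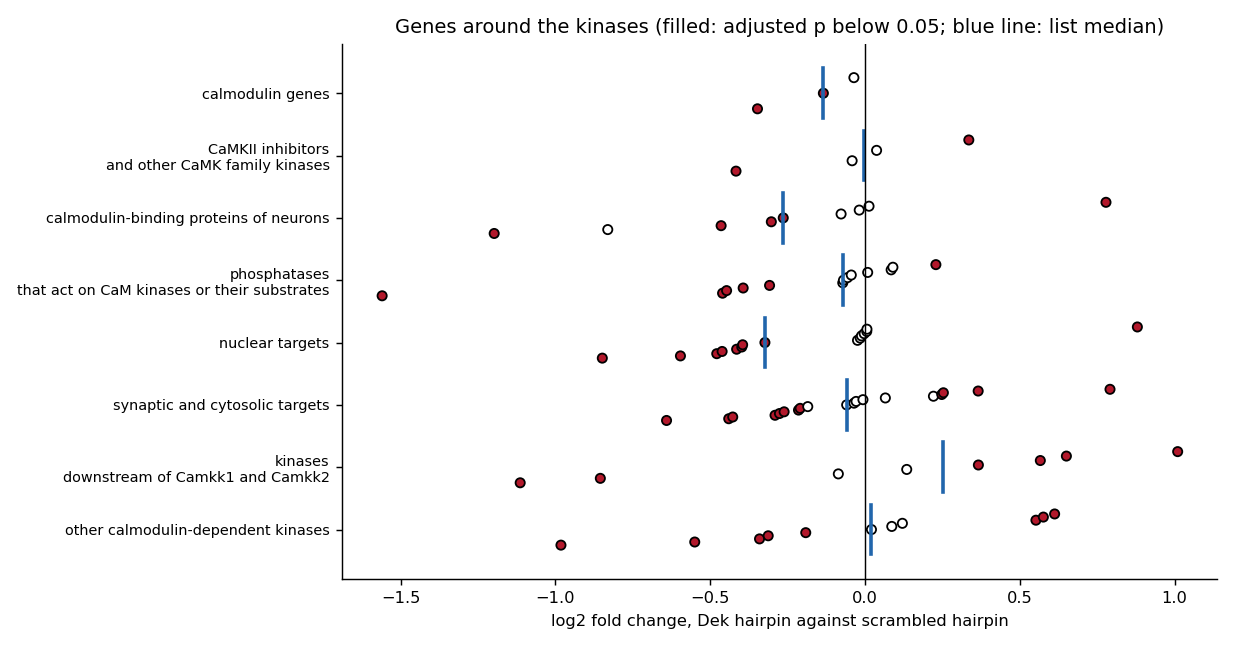
The log2 fold change between Dek hairpin and scrambled hairpin wells for each tested gene of the 8 lists around the kinases, with filled circles where the adjusted p is below 0.05 and a blue line at the list median. The nuclear targets have a median of -0.32 and the kinases downstream of Camkk1 and Camkk2 a median of 0.25, while the median over all genes is -0.0011.

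Promoter windows from RefSeq (GRCm38.p6, 250 bases before to 50 after the start) were given for 7 of the 10 kinases, in 8 windows. The CREB site TGACGTCA, read on both strands, was in 0 of the 8 and in 1.79% of the 32851 promoters of the table, and the AP-1 site TGANTCA was in 0 of the 8 and in 7.81% of all. The shorter TGACG, part of the CREB site, was in the windows of Camk1 and Camkk1 and in 20.8% of promoters. The EGR site GCGNGGGCG was in 2 of the 8 windows, those of Camk1d and Camk2b, and in 5.55% of all promoters. The site is nearly all G and C, and these windows held 71.3% and 77.3% G and C. The median over all promoters was 52.7%, and the part of base content in the matches was not tested. These 2 matches are shown, written on the gene's strand with the match in capitals, because one gene fell and the other did not. In Camk1d the match lies on the opposite strand, so its capitals are the reverse complement of the site.
Camk1d promoter, chr2:5714741-5714769, minus strand: ttctcccaccCGCCCTCGCccggggaccc
Camk2b promoter, chr11:6065944-6065972, minus strand: gcgggtgccgGCGCGGGCGcgacgggcat
The letters are a description of the windows and not evidence of binding.

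The genes whose pattern over the 12 wells was most like that of a kinase were sought among 11018 genes with a mean of at least 5 CPM, by the root mean square (RMS) difference of log2 CPM centred on each gene's mean. Nearest to Camk4 (own RMS deviation 0.790) were Myt1l at an RMS difference of 0.0915, Scn2a at 0.0971 and Klhl24 at 0.108. Camk2d (0.487) was nearest to Mphosph8 (0.0507), Mapre1 (0.0593) and Utp18 (0.0600). The genes nearest to Camk1d (0.611) were Rad54l2 (0.0665), Mtmr6 (0.0677) and Gng2 (0.0745). For Camkk2 (0.310) they were Cadm3 (0.0770), Phf24 (0.0824) and Tln2 (0.0834), and for Camk2a (0.305) Tmem91 (0.0846), C87436 (0.0851) and C2cd4c (0.0904). Camk2b and Camk2g varied so little (own RMS 0.0620 and 0.0631) that their nearest genes, Zfp46 (0.0329) and Taldo1 (0.0324), are close mainly in not varying.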

How the data were processed

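RNA sequencing of 12 wells in 4 groups was analysed. The authors deposited estimated counts for each gene, and their processing notes name Salmon, DESeq2 and mm10 without versions, while the study's methods name fastp, STAR 2.7.1a and mm10. Of the values 38.6% were not whole, and 9 genes without a symbol took part in the fits but not in the lists. The members and gene lists were chosen with earlier results of these data known.

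Estimated counts were rounded, filtered with filterByExpr, scaled by TMM and tested in edgeR 4.0.16 (R 4.3.3; quasi-likelihood F test, robust), adjusted by Benjamini-Hochberg over all genes tested. Comparisons of 3 wells with 3 were fitted pairwise, and the difference of responses in all 12. The SE is |log2FC| over the root of F, and 95% intervals use the test's degrees of freedom. CPM uses TMM factors over all 12 libraries. Shares and levels per kilobase use the longest coding transcript of GENCODE vM21. Each member is named, and from lists of over 6 genes at most 4 per direction with the smallest adjusted p, while genes named with values that did not pass were chosen after their values were seen. A few list genes are not reported here. The main test was tested on simulated counts. Alternatives were DESeq2 1.42.0 (size factors and Wald test), limma-voom (limma 3.58.1), library totals, filters, one fit of 12, a replicate block, each well left out, a log2FC beyond 1, and GC and length correction (mgcv 1.9.3). Permutation tests used scipy 1.17.1 and figures matplotlib 3.10.9 under Python 3.11.15.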

Additional observations from a re-analysis of the deposited data

Results flagged for a closer look

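For 5 kinases the response to Dek silencing differed from the response to Dek overexpression in the fit of all 12 wells (edgeR, adjusted p below 0.05). The response to silencing was lower by the following amounts on the log2 scale. Camk4 differed by -1.62, Camk1d by -1.17, Camk2d by -1.04 and Camk2a by -0.70. Camkk1 differed in the other direction, by 0.26. The silencing response was taken against the scrambled hairpin and the overexpression response against the empty vector, so vector type differs between the responses as well as the direction of the Dek change, and these cannot be told apart.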

How the results depend on the processing

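Camk4, Camk1d, Camk2d and Camk2a were lower in silencing against scrambled in all 15 alternative fits (log2FC between -1.56 and -0.42), and their difference from overexpression was called in all 20. Among the 10 kinases 0 were called under overexpression in any of its 15 fits. Between silencing and scrambled, scaling by library totals called 1 kinase higher (Camkk1) and put Camk2b at 0.054, with 4793 genes higher and 3210 lower over the table against 3730 and 4060 under TMM. A log2FC beyond 1 as well left 3 kinases lower, there and against the empty vector, and 0 lower between the controls. It also left 0 higher in silencing against empty vector and 0 higher in the difference of responses. The GC and length correction changed most. Between the controls it called Camk1 lower (-0.21, adjusted p = 0.0062) and 1 kinase higher (Camk2d, 0.13), and put Camk2a at 0.045 and Camk1d at 0.015. In silencing against empty vector it called 0 higher, with Camk2b at -0.075, and in the difference of responses 0 higher and 7 lower, with Camk2g at -0.013. Without a filter on low counts, silencing against empty vector had 1 kinase higher, with Camk2b at -0.0071, and the difference had 0 higher, with Camk2g at -0.011. The GC and length correction also ended the calls of Camk4 between the controls, Camk2g against the empty vector and Camkk1 in the difference (adjusted p = 0.069, 0.060 and 0.094). A filter of 5 CPM ended that of Camk1 in silencing against scrambled (0.076). The cause was not tested for these changes. Without length correction the share of Camk2b differed by 7.07 and that of Camk2d by -6.06 percentage points between silencing and scrambled, against 5.83 and -4.87 with it.

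With each well left out in turn, the kinases called higher ranged from 0 to 2 between the controls (2 without scrambled replicate 1), from 1 to 2 in silencing against empty vector and from 0 to 1 in the difference. Those called lower in silencing against scrambled ranged from 4 to 5, against 6 with all wells. Lower calls ranged from 2 to 4 between the controls, from 6 to 7 in silencing against empty vector and from 4 to 5 in the difference. Values that crossed 0 ranged as follows. In silencing against scrambled Camk2g ranged from -0.013 to 0.051. Under overexpression Camk2d ranged from -0.022 to 0.055 and Camk1d from -0.089 to 0.0083. Between the controls Camk2a ranged from -0.094 to 0.11, Camk1 from -0.0030 to 0.043 and Camk1g from -0.10 to 0.023. Against the empty vector Camk2b ranged from -0.012 to 0.039 in silencing, and in the difference Camk2g ranged from -0.027 to 0.036. Calls gained were those of Camkk2 in the difference without silencing replicate 2, scrambled replicate 1 or empty vector replicate 1 (adjusted p = 0.031, 0.0041 and 0.049), of Camk1g in the difference without silencing replicate 1 (log2FC -0.30, adjusted p = 0.041), and of Camk1 against the empty vector without silencing replicate 3 (adjusted p = 0.013). The last was also called with DESeq2 size factors (0.048), no filter (0.023), one fit of 12 (0.031) and the GC and length correction (log2FC -0.56).

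Same-numbered wells of silencing and scrambled deviated from their group means with correlations of 0.304, 0.133 and 0.0698, all positive. Those of the other comparisons had correlations of -0.212 to -0.0197. The records do not say whether equal numbers mark a shared dissection, so the main fits left the wells unpaired. Whether silencing and scrambled wells are paired was not settled by these values. With the replicate number as a block, Camkk2 passed between silencing and scrambled (log2FC -0.15, adjusted p = 0.043) and Camk4 did not between the controls (log2FC -0.33, adjusted p = 0.082), and genes called went from 7790 to 8620 and from 6072 to 4897.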
